A study of Homo sapiens with 15 samples.

Results

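The miR-29 family was followed through miRNA-Seq of U87-MG cells, an established human glioblastoma line. Its members were taken by name, as the mature miRNAs hsa-miR-29a-3p, hsa-miR-29b-3p, hsa-miR-29c-3p, hsa-miR-29a-5p and hsa-miR-29c-5p (written below without the species prefix), which are 5 of the 1707 miRNAs counted. All 5 passed the filter on low counts, as did 562 miRNAs in total. Of the 5 groups, each of 3 libraries, 4 were kept in 1% O2 for 24 h. These were control cells with both factors intact, knockouts of HIF1α (HIF1α-KO) or of HIF2α (HIF2α-KO), and cells lacking both (HIF1α/HIF2α-KO). The remaining group was control cells kept in 21% O2 for 24 h. HIF1α and HIF2α are the oxygen-regulated subunits of the transcription factors that drive the response to hypoxia. All cells shared the parental line and medium. The knockouts were made with CRISPR/Cas9 guides delivered in the lentiviral lentiCRISPRv2 vector. Whether knockout cells were a clone or a pool, and whether control cells carried an empty vector, is not given in the sources used here. The study looked for miRNAs related to HIF1α and HIF2α. The assay does not count the mRNAs of the targeted genes, so the knockouts could not be checked here. Nothing in the labels says that replicates came from separate cultures, and p-values then measure only the spread between these libraries, which may be technical.

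A miRNA hairpin gives a 5p and a 3p arm, of which one, the guide strand, is usually kept in the silencing complex. The guide strand pairs with messenger RNAs chiefly through its seed, a short stretch near its 5′ end, and lowers their stability and translation. In the miR-29 family the 3p arms are the guide strands. They are best known for repressing collagens, elastin and other matrix genes in fibrotic tissue, and they also target the DNA methyltransferases DNMT3A and DNMT3B and the survival factor MCL1.

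The 3 guide strands are shown first because they share one seed and differ so little that the counting of reads bears on their values. Bases 2 to 8, the seed, are in capitals, and all sequences are from RefSeq (GRCh38.p14), in which all 7 arms described here were matched by name.
miR-29a-3p: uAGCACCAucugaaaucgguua
miR-29b-3p: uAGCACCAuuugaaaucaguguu
miR-29c-3p: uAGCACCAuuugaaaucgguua
The seed AGCACCA occurred in 0 other miRNAs of the 2370 mature miRNAs in the table. Counted from the 5′ end, miR-29c-3p differs from miR-29a-3p by the single substitution C10U. miR-29b-3p differs from miR-29a-3p by C10U, G18A, U21G and A22U and is 1 base longer. It is the only one of the 7 arms that ends in AGUGUU, a 3′ motif known to direct miR-29b to the nucleus, and 0.0844% of all mature miRNAs in the table end in these letters.

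The 5p arms have other seeds, so they would pair with other targets, and they tell the hairpins apart.
miR-29a-5p: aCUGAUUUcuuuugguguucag
miR-29c-5p: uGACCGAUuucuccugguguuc
miR-29b-1-5p: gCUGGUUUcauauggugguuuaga
miR-29b-2-5p: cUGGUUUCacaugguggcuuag
The last 2 are not members of the family as listed but are arms of its hairpins. They are given because each comes from a single locus of the pair that makes miR-29b-3p. How far their levels follow the output of miR-29b-3p from each locus was not tested.

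The hairpins are shown because they explain which arms can be assigned to a locus. Both arms are in capitals.
MIR29A, chr7:130876747-130876810, minus strand: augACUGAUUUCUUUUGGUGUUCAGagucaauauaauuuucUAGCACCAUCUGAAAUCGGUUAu
MIR29B1, chr7:130877459-130877539, minus strand: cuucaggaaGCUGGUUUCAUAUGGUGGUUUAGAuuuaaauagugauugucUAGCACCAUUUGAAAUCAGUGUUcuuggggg
MIR29B2, chr1:207802443-207802523, minus strand: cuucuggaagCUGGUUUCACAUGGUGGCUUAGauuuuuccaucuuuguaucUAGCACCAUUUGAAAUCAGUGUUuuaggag
MIR29C, chr1:207801852-207801939, minus strand: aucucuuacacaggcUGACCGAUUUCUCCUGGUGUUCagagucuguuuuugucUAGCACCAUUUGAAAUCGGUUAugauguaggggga
The positions are on GRCh38.p14. MIR29A and MIR29B1 lie 648 bases apart on chromosome 7, and MIR29C and MIR29B2 lie 503 bases apart on chromosome 1. In GENCODE v29, MIR29B1 lies within an exon of the long noncoding RNA LINC-PINT. MIR29A lies almost wholly outside that exon, whose lowest position is chr7:130876809. Both also lie in introns of AC016831.6, a long noncoding RNA on the same strand. MIR29B2 and MIR29C lie within an exon of MIR29B2CHG, the host transcript named after MIR29B2. The mature miR-29b-3p is identical from both loci, so its counts cannot be divided between chromosomes 7 and 1. Whether reads with a mismatch were counted is not given in the sources used here, so the counts of the scarce miR-29c-3p may hold reads of the abundant miR-29a-3p and are uncertain to that extent.

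Levels are given as CPM, counts per 1e6 counts of the library after TMM scaling, a method that adjusts each library for its composition. The total per library was 10360337 to 22496373 counts. A floor of 3 counts was used for detection, which came to no more than 0.286 CPM in any library and covers counting error only. The miRNAs known to be abundant in glioma cells (miR-21-5p, miR-10b-5p, miR-221-3p and miR-222-3p) summed to between 198100 and 301250 CPM, and the neuronal miR-124-3p did not exceed 0.539 CPM. miR-210-3p, a direct target of HIF1α, measured 240 to 436 CPM in HIF1α-KO cells and 146 to 348 CPM in HIF1α/HIF2α-KO cells, against 935 to 1152 CPM in control cells in 1% O2. It fell in both by the edgeR quasi-likelihood test (adjusted p = 0.0126 and 0.00402). A property that did not follow the genotypes was the level of the endothelial miR-126-3p and miR-126-5p, which summed to 14.0 to 50.8 CPM in 9 libraries and 4.01 to 6.64 CPM in the other 6. All normoxic libraries were among the 9, so oxygen and this split cannot be told apart in full.

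miR-29a-3p made up nearly all of the family. It held 96.9% to 98.6% of the counts of the 5 members in a library and ranked between 15 and 18 among all miRNAs by level. miR-29b-3p held 1.09% to 2.59% of the family counts, miR-29c-3p 0.233% to 0.465%, and the 5p members 0.0174% to 0.0681% each. The family as a whole took 0.783% to 0.850% of the counts of a library from control cells in 1% O2 and 0.751% to 0.835% in 21% O2. It took 0.980% to 1.05% in HIF1α-KO cells, 0.814% to 0.912% in HIF2α-KO cells and 0.937% to 1.19% in HIF1α/HIF2α-KO cells. The shares in HIF1α-KO and in HIF1α/HIF2α-KO cells thus lay above all 6 shares in control cells, without a test. The plot of all hairpin arms shows how far apart the arms were in level.

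No member of the family passed an adjusted p of 0.05 in any of the comparisons in the quasi-likelihood test of edgeR, nor in its test of any difference among the 5 groups. The nearest was miR-29b-3p in HIF1α/HIF2α-KO cells. In the test of any difference, in which 6.23% of all miRNAs tested passed, the adjusted p was 0.0717 for miR-29b-3p, 0.105 for miR-29a-3p, 0.133 for miR-29a-5p, 0.300 for miR-29c-3p and 0.840 for miR-29c-5p. The unadjusted p was under 0.05 for 3 of the 5, against 26.5% of all miRNAs tested. With DESeq2 in place of edgeR, 1 member passed, miR-29b-3p, while 14.4% of all miRNAs did, and with limma 0 members and 5.52% of all passed. The levels are given for each member in turn.

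miR-29a-3p, the dominant guide strand, measured 7534, 7979 and 8433 CPM in control cells in 1% O2 (replicates 1, 2 and 3). It measured 9299, 10311 and 8995 CPM in HIF1α-KO cells, 8438, 9799 and 9497 CPM in HIF2α-KO cells and 8787, 10284 and 11038 CPM in HIF1α/HIF2α-KO cells. In control cells in 21% O2 it was at 8322, 7428 and 7752 CPM. After TMM scaling, all 9 knockout libraries lay above the 3 hypoxic control libraries. By group, 10.1% of all miRNAs tested did so in HIF1α-KO, 9.07% in HIF2α-KO and 13.7% in HIF1α/HIF2α-KO cells. The share that did so in all 3 knockouts was not computed. However, the lowest HIF2α-KO library (8438 CPM) was barely above the highest control library (8433 CPM). The group means ran from 10036 ± 1146 (SD, n = 3) in HIF1α/HIF2α-KO cells through 9535 ± 689 in HIF1α-KO and 9245 ± 715 in HIF2α-KO cells to 7982 ± 450 in hypoxic and 7834 ± 453 CPM in normoxic control cells. After this scaling the knockout groups did not differ from one another beyond their spread, nor did the control groups. With total counts in place of TMM, HIF2α-KO libraries were at 8008, 8928 and 8530 CPM. They then overlapped the hypoxic control libraries, at 7699, 8207 and 8302 CPM. They also lay below the HIF1α-KO libraries, at 9873, 10222 and 9661 CPM, and the HIF1α/HIF2α-KO libraries, at 9080, 11171 and 11546 CPM.

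miR-29b-3p, the guide strand with the nuclear motif, measured 95.1, 113 and 155 CPM in control cells in 1% O2 and 116, 82.0 and 120 CPM in 21% O2. It measured 193, 198 and 106 CPM in HIF1α-KO cells, 111, 166 and 160 CPM in HIF2α-KO cells and 235, 187 and 276 CPM in HIF1α/HIF2α-KO cells. Every library of HIF1α/HIF2α-KO cells lay above every control library and every HIF2α-KO library, but 2 of the 3 HIF1α-KO libraries reached into its range. The means fell from 233 ± 44.7 in HIF1α/HIF2α-KO through 166 ± 51.8 in HIF1α-KO, 146 ± 29.9 in HIF2α-KO and 121 ± 30.9 in hypoxic control to 106 ± 20.8 CPM in normoxic control cells (SD, n = 3 each), and groups next to each other in this order overlapped throughout.

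miR-29c-3p, the least abundant guide strand, measured 27.3, 34.1 and 40.2 CPM in control cells in 1% O2 and 24.7, 19.8 and 26.0 CPM in 21% O2. It measured 42.0, 45.3 and 21.3 CPM in HIF1α-KO cells, 25.1, 38.6 and 31.8 CPM in HIF2α-KO cells and 34.0, 37.2 and 51.5 CPM in HIF1α/HIF2α-KO cells. The control groups did not overlap, being higher in 1% O2, whereas the 4 hypoxic groups overlapped one another. HIF1α-KO replicate 3 was at about the level of the normoxic controls. In the order of means (40.9 ± 9.30 in HIF1α/HIF2α-KO, 36.2 ± 13.0 in HIF1α-KO, 33.9 ± 6.46 in hypoxic control, 31.9 ± 6.75 in HIF2α-KO and 23.5 ± 3.25 CPM in normoxic control cells) neighbours overlapped.

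The 5p members ranked lower by level in a library, from 278 to 437 for miR-29a-5p and from 288 to 347 for miR-29c-5p, with 562 miRNAs tested. miR-29a-5p, the passenger strand of MIR29A, rested on 17 to 87 counts a library. It measured 2.03, 3.54 and 3.49 CPM in control cells in 1% O2, 3.09, 1.31 and 2.77 CPM in 21% O2, 4.16, 4.25 and 2.07 CPM in HIF1α-KO cells, 1.88, 2.09 and 3.80 CPM in HIF2α-KO cells and 5.10, 5.15 and 6.97 CPM in HIF1α/HIF2α-KO cells. The 3 libraries of HIF1α/HIF2α-KO cells were the highest of all 15, and the other groups overlapped. The share of all miRNAs with such a pattern was not computed. The means were 5.74 ± 1.06 in HIF1α/HIF2α-KO, 3.49 ± 1.23 in HIF1α-KO, 3.02 ± 0.862 in hypoxic control, 2.59 ± 1.05 in HIF2α-KO and 2.39 ± 0.948 CPM in normoxic control cells.

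miR-29c-5p, the passenger strand of MIR29C, rested on 34 to 125 counts a library. It measured 3.13, 5.40 and 3.64 CPM in control cells in 1% O2, 3.33, 4.16 and 5.35 CPM in 21% O2, 4.07, 3.81 and 4.49 CPM in HIF1α-KO cells, 5.01, 4.76 and 5.51 CPM in HIF2α-KO cells and 6.17, 3.41 and 3.61 CPM in HIF1α/HIF2α-KO cells. HIF2α-KO cells had the highest mean, 5.09 ± 0.382 CPM, and lay above HIF1α-KO cells in every library after TMM scaling, but not with total counts. The other means, 4.06 to 4.40 CPM, did not differ beyond the spread. Of the additional arms, miR-29b-1-5p from chromosome 7 was at 6.66 to 13.0 CPM and miR-29b-2-5p from chromosome 1 at 0.406 to 1.62 CPM, the latter on 5 to 19 counts.

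The comparison of HIF1α/HIF2α-KO with control cells in 1% O2 asks what the loss of both factors changed. Of the 5 members, 3 (miR-29a-3p, miR-29a-5p and miR-29b-3p) were higher in every knockout library than in every control library, against 13.7% of all miRNAs tested, and 0 were lower throughout (16.7% of all). None passed the adjusted test, in which 5.87% of all miRNAs were called, while 3 members had an unadjusted p under 0.05, as did 24.4% of all. miR-29b-3p was 1.92-fold higher, a log2 fold change of 0.94 ± 0.27 (SE) with a 95% interval of 0.36 to 1.52 and an adjusted p of 0.0534 in edgeR. That value lies beside the threshold, and 8 of 10 other settings and 2 of 6 fits with a replicate left out took it under 0.05, with adjusted p from 0.00206 to 0.140 over all 16, in which 15 to 61 miRNAs of all those tested were called. The fits that passed were those without HIF1α/HIF2α-KO replicate 2 (log2 fold change 1.11) and without control replicate 3 (1.18).

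miR-29a-3p was 1.26-fold higher in HIF1α/HIF2α-KO than in control cells, with a log2 fold change of 0.33 ± 0.11 (SE, 95% interval 0.10 to 0.56, edgeR adjusted p = 0.0672). Its SE was the smallest among the 5 members. miR-29a-5p differed by 0.91 ± 0.37 on the log2 scale (95% interval 0.12 to 1.69, adjusted p = 0.133). For miR-29c-3p and miR-29c-5p the log2 fold changes were 0.27 and 0.11, with intervals of -0.32 to 0.87 and -0.47 to 0.69. The interval of miR-29c-3p holds the value of miR-29a-3p. The median log2 fold change of the members was 0.33, and 5 of 5 were above 0, against a median of -0.02 and 48.2% above 0 over all miRNAs tested. The members include both arms of MIR29A and of MIR29C, so their signs are not independent in any comparison. That of miR-29c-5p changed with a replicate left out (-0.21 to 0.40).

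The arm miR-29b-1-5p, made only from chromosome 7, had a log2 fold change of 0.63 ± 0.20 (SE, 95% interval 0.19 to 1.07, edgeR adjusted p = 0.0672) in this comparison. Its values of 12.8, 13.0 and 9.75 CPM in HIF1α/HIF2α-KO cells lay above 7.83, 7.39 and 7.79 CPM in control cells. Of all miRNAs tested, 13.7% were higher without overlap. Normoxic control cells, at 9.91, 8.71 and 9.28 CPM, also lay above the hypoxic control cells, and the share of all miRNAs that did so was not computed. HIF1α/HIF2α-KO replicate 3 was within the normoxic range. miR-29b-2-5p from chromosome 1 measured 0.693, 0.833 and 1.07 CPM in HIF1α/HIF2α-KO cells and 0.553, 0.778 and 1.09 CPM in control cells on 5 to 19 counts a library, which overlapped. With DESeq2 and with limma, which called 10.7% and 6.76% of all miRNAs, the adjusted p of miR-29b-1-5p was under 0.05, and over all 16 other fits it ran from 0.0367 to 0.340.

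The estimated differences from hypoxic control cells were smaller in HIF1α-KO than in HIF1α/HIF2α-KO cells. Between these 2 knockouts 0 members passed the adjusted test (1.42% of all miRNAs did). In HIF1α-KO against control cells only miR-29a-3p did not overlap, being higher in the knockout, as were 10.1% of all miRNAs tested. There 0 members passed the adjusted test, in which 1.25% of all were called. The log2 fold change of miR-29a-3p was 0.26 ± 0.11 (SE, 95% interval 0.03 to 0.49), with an unadjusted p of 0.0315 in edgeR, the 1 member under 0.05 (11.9% of all miRNAs were), and an adjusted p of 0.327. miR-29b-3p differed by 0.45 ± 0.27 (95% interval -0.12 to 1.03). The other log2 fold changes were 0.21 for miR-29a-5p, 0.10 for miR-29c-3p and 0.01 for miR-29c-5p. With DESeq2 and with limma, 0 members passed as well (2.14% and 1.07% of all miRNAs did). The median of the members was 0.21 against -0.05 over all miRNAs.

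Loss of HIF2α alone left 0 members past the adjusted p of edgeR and 0 past that of DESeq2 or limma, with 0 members at an unadjusted p under 0.05 in edgeR. The percentage of all miRNAs called was 0, and 15.3% had an unadjusted p under 0.05. After TMM scaling, miR-29a-3p again lay above the control libraries without overlap, as did 9.07% of all miRNAs. Its log2 fold change was 0.21 ± 0.11 (SE, 95% interval -0.02 to 0.44, edgeR adjusted p = 0.380). The log2 fold changes of the others were 0.26 for miR-29b-3p, -0.09 for miR-29c-3p, -0.24 for miR-29a-5p and 0.31 for miR-29c-5p, and the interval of each held 0. The 3 knockout comparisons share the same hypoxic control libraries, so the like sign of miR-29a-3p in all of them is not independent. With total counts in place of TMM, miR-29a-3p in HIF2α-KO cells overlapped the control libraries (log2 fold change 0.073, edgeR adjusted p = 0.758).

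**Figure D1:**
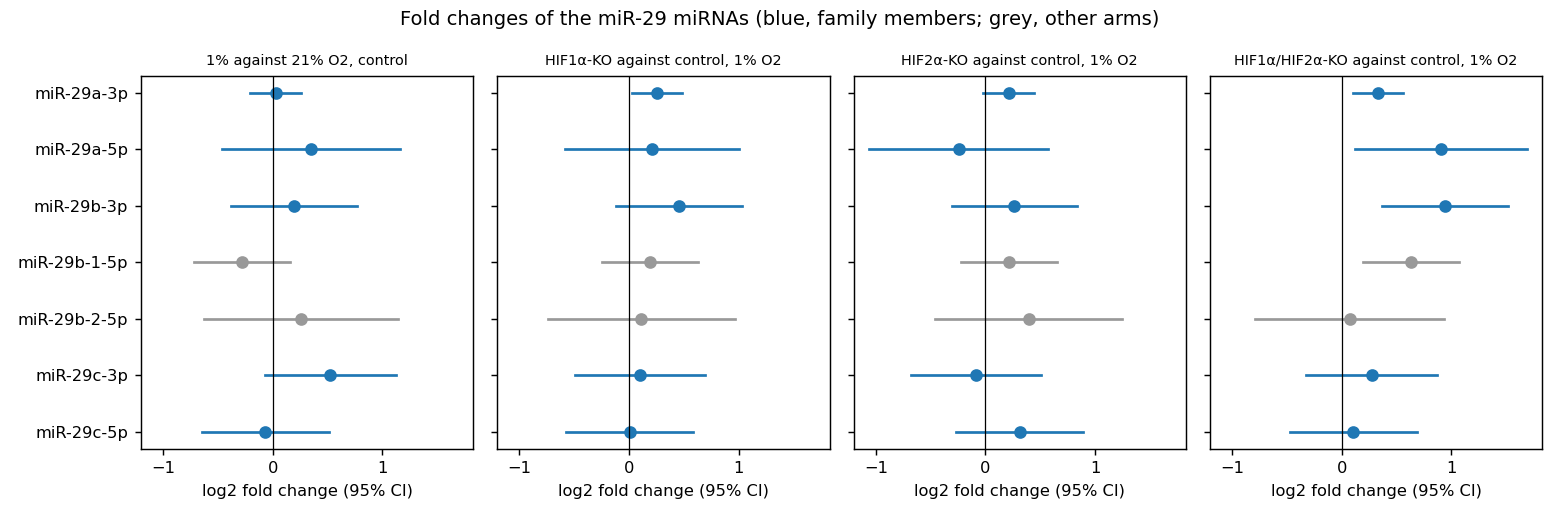
Log2 fold changes from the edgeR fit, with 95% intervals as lines, for the 7 arms in the comparison of oxygen levels and in the 3 knockouts against hypoxic control cells. In HIF1α/HIF2α-KO cells the intervals of miR-29a-3p, miR-29a-5p, miR-29b-3p and miR-29b-1-5p lie above 0, and those of miR-29c-3p and miR-29c-5p include it.

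The knockouts were also compared with one another. Between HIF1α/HIF2α-KO and HIF2α-KO cells, miR-29a-5p and miR-29b-3p did not overlap and were higher without both factors, as were 8.72% of all miRNAs tested. The log2 fold change of miR-29a-5p was 1.15 ± 0.38 (SE, 95% interval 0.34 to 1.96, edgeR adjusted p = 0.108) and that of miR-29b-3p 0.68 ± 0.27 (95% interval 0.10 to 1.25, adjusted p = 0.163). These were the members with an unadjusted p under 0.05 (19.9% of all miRNAs were), and 0 passed the adjusted test, in which 1.78% of all were called. Without the filter on low counts miR-29a-5p passed in edgeR (adjusted p = 0.0315), as did 1.23% of the miRNAs then tested.

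Between HIF1α/HIF2α-KO and HIF1α-KO cells only miR-29a-5p did not overlap (10.5% of all miRNAs were higher without overlap), with a log2 fold change of 0.70 ± 0.36 (SE, adjusted p = 0.425 in edgeR). In this comparison 1.42% of all miRNAs were called and 0 members were. At an unadjusted p under 0.05 it was 14.9% of all miRNAs and 0 members. miR-29a-3p differed by 0.07 ± 0.11 and miR-29b-3p by 0.49 ± 0.27. Between HIF2α-KO and HIF1α-KO cells only miR-29c-5p did not overlap after TMM scaling (11.0% of all were higher without overlap). It differed by 0.31 ± 0.27 on the log2 scale, with an adjusted p of 0.596 in edgeR. In this fit 1.07% of all miRNAs were called and 17.4% had an unadjusted p under 0.05, and 0 members did either. With total counts miR-29c-5p overlapped, at 4.75, 4.33 and 4.95 against 4.33, 3.78 and 4.83 CPM. miR-29a-3p was then lower in HIF2α-KO cells without overlap (log2 fold change -0.22, edgeR adjusted p = 0.234). The share of all miRNAs lower without overlap was not computed. DESeq2 and limma called 0 members in these 3 comparisons between knockouts, and of all miRNAs 3.38% to 4.45% and 1.07% to 2.85%.

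Whether the effect of losing HIF1α depended on HIF2α was tested as an interaction. The interaction was 0.95 ± 0.53 on the log2 scale for miR-29a-5p (SE, 95% interval -0.18 to 2.08, edgeR adjusted p = 0.627) and between -0.21 and 0.26 for the other members. For 0 of the 5 was the unadjusted p under 0.05, against 10.5% of all miRNAs tested, and 0% of all were called. DESeq2 and limma also called 0 members. The interval for miR-29a-3p, -0.46 to 0.19, bounds an interaction for the dominant member more tightly than the others.

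The comparison of oxygen levels in control cells bears on whether 24 h of hypoxia itself moved the family. miR-29a-3p differed by 0.03 on the log2 scale, with a 95% interval of -0.20 to 0.26, and miR-29b-3p by 0.19 (-0.38 to 0.77). miR-29c-3p was 1.44-fold higher in 1% O2, without overlap, as were 7.83% of all miRNAs, but its log2 fold change of 0.53 ± 0.28 (SE, 95% interval -0.07 to 1.12) had an adjusted p of 0.724 in edgeR. With the split of libraries by miR-126 as a covariate it was 0.11 ± 0.20 (SE, adjusted p = 0.991). The log2 fold changes of the 5p members were 0.35 for miR-29a-5p and -0.07 for miR-29c-5p. No member had an unadjusted p under 0.05, 0 passed in edgeR, DESeq2 or limma, and the percentage of all miRNAs called was 0, with 6.23% at an unadjusted p under 0.05. miR-210-3p, whose level is known to rise in hypoxia, measured 1018 to 1308 CPM in 21% O2 and its difference in 1% O2 did not pass the test (log2 fold change -0.19, 95% interval -0.84 to 0.46, adjusted p = 0.841).

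Ratios of counts within a library do not depend on scaling, and 4 were compared across the 5 groups with an exact permutation test over all 1401400 divisions of the libraries. None passed 0.05, before or after adjustment over the 4. The count of miR-29a-3p per count of its passenger miR-29a-5p was 1584 to 1996 in HIF1α/HIF2α-KO libraries, below all 12 other libraries (2238 to 5666). The group means were 1768 ± 210 in HIF1α/HIF2α-KO, 2794 ± 803 in hypoxic control, 3005 ± 1170 in HIF1α-KO, 3719 ± 1687 in normoxic control and 3891 ± 1208 in HIF2α-KO cells (SD, n = 3 each, exact permutation p = 0.114, adjusted p = 0.228).

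The balance between guide strands was the second kind of ratio. miR-29b-3p amounted to 2.33% ± 0.455 of miR-29a-3p in HIF1α/HIF2α-KO cells, 1.73% ± 0.480 in HIF1α-KO, 1.56% ± 0.213 in HIF2α-KO, 1.51% ± 0.299 in hypoxic control and 1.35% ± 0.224 in normoxic control cells (SD, n = 3 each, exact permutation p = 0.0883, adjusted p = 0.228). HIF1α/HIF2α-KO replicate 2, at 1.82%, reached into the range of the others. miR-29c-3p amounted to between 0.237% and 0.476% of miR-29a-3p over all libraries (exact permutation p = 0.309, adjusted p = 0.393). A share of miR-29a-3p reads counted as miR-29c-3p, were it the same in every library, was therefore at most 0.237%. miR-29c-3p per miR-29c-5p was 4.74 to 14.3 (exact permutation p = 0.393, adjusted p = 0.393), far below the ratio of the arms of MIR29A.

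The guide strands also moved with the split of libraries by miR-126. In each of the 4 hypoxic groups, the libraries with less miR-126 had more miR-29a-3p, miR-29b-3p and miR-29c-3p than the libraries with more. Each group had 1 library on one side, and the share of all miRNAs with this pattern was not computed. miR-29a-5p showed it except in HIF2α-KO cells (2.09 against 1.88 and 3.80 CPM), and miR-29c-5p only in control cells. For miR-29b-3p the values were 193 and 198 CPM against 106 CPM in HIF1α-KO cells, 166 against 111 and 160 in HIF2α-KO cells, 113 and 155 against 95.1 in control cells and 276 against 187 and 235 in HIF1α/HIF2α-KO cells. Set within each kind of library, HIF1α/HIF2α-KO against control was 187 and 235 against 95.1 CPM among the libraries with more miR-126 and 276 against 113 and 155 CPM among those with less, with 1 library on one side each time.

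With the split as a covariate in edgeR, the log2 fold change of miR-29b-3p in HIF1α/HIF2α-KO against control cells was 1.12 (adjusted p = 0.00616) and miR-29a-3p also passed (adjusted p = 0.0401). Of all miRNAs 10.9% passed in that fit (29 higher and 32 lower), against 5.87% without the covariate (7 and 26). This covariate was chosen with earlier results of these data known. miR-29c-3p was at 19.8 to 26.0 CPM in normoxic control libraries, all of which held more miR-126, and at 27.3 CPM in the 1 hypoxic control library that did so. The 2 hypoxic control libraries with less miR-126 were at 34.1 and 40.2 CPM. The part of the split in these results was not tested beyond the covariate.

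Markers of other cell types were set beside the family. The endothelial pair summed to 18.0 to 38.7 CPM in normoxic control, 4.28 to 50.8 in hypoxic control, 4.01 to 33.4 in HIF1α-KO, 4.28 to 35.7 in HIF2α-KO and 6.64 to 15.7 CPM in HIF1α/HIF2α-KO cells. The muscle markers miR-1-3p, miR-133a-3p and miR-206 summed to 1.63 to 7.48, 6.73 to 27.9, 8.45 to 44.2, 2.50 to 18.7 and 20.2 to 45.1 CPM in the same order of groups, of which miR-206 had 0 to 3 counts a library. The muscle sum reached its highest value in HIF1α/HIF2α-KO cells, the group with the highest means of miR-29b-3p and miR-29c-3p, and its part in the result was not tested. Over all libraries, 7 blood markers summed to 4.54 to 24.1 CPM, 5 epithelial markers to 36.8 to 99.4 CPM and the smooth muscle and stroma markers miR-143-3p and miR-145-5p to 115 to 395 CPM. Of these lists 0 miRNAs passed the adjusted p of edgeR in any comparison, with 0 or 1 of each list at an unadjusted p under 0.05. DESeq2 and limma each called 1, the epithelial miR-200c-3p, in HIF1α/HIF2α-KO against control and against HIF2α-KO cells. In the latter comparison DESeq2 called 3.38% and limma 1.96% of all miRNAs.

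Across the 15 libraries, which share groups, scaling and the miR-126 split, the members were correlated to different degrees, given here as a description. miR-29b-3p followed miR-29a-5p (Pearson r = 0.875, Spearman rho = 0.889), miR-29c-3p (r = 0.866, rho = 0.811) and miR-29a-3p (r = 0.828, rho = 0.786). miR-29c-5p did not follow any guide strand (r between -0.153 and 0.031), including its own partner on the hairpin. miR-29b-3p was less close to miR-29b-1-5p (r = 0.459) and to miR-29b-2-5p (r = 0.408), the arms of its own loci.

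Of the 555 other miRNAs tested, those most like miR-29b-3p were miR-101-3p (r = 0.865, rho = 0.829), miR-582-5p (r = 0.857, rho = 0.786) and miR-944 (r = 0.829, rho = 0.793). Those most like miR-29a-3p were miR-3117-3p (r = 0.862, rho = 0.868), miR-582-5p (r = 0.851, rho = 0.832) and miR-101-3p (r = 0.843, rho = 0.814). miR-29c-3p was most like miR-1-3p, the muscle marker (r = 0.891, rho = 0.918, at 0.975 to 41.8 CPM), then miR-10a-5p (r = 0.881, rho = 0.879) and miR-605-3p (r = 0.872, rho = 0.904). Of these, miR-101-3p at 473 to 1297 CPM and miR-10a-5p at 1806 to 3765 CPM were abundant, while miR-944 did not exceed 1.09 CPM.

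Other miRNAs known to act on matrix genes and fibrosis, a list of 25 that includes the miR-30, miR-200 and miR-19 groups, were set beside the family. Of these, 24 were counted and tested. In HIF1α/HIF2α-KO against control cells, 2 of the 24 rose and 0 fell, against 5.87% of all miRNAs called, and 8 had an unadjusted p under 0.05, against 24.4% of all. miR-30a-5p rose by 0.87 ± 0.16 on the log2 scale (SE, edgeR adjusted p = 0.00672) and miR-192-5p by 0.56 ± 0.13 (adjusted p = 0.0241). The median log2 fold change of the list was 0.12, against -0.02 over all miRNAs. In the other 7 comparisons 0 passed (0% to 1.78% of all miRNAs did), with 0 to 5 at an unadjusted p under 0.05 (6.23% to 19.9% of all). However, miR-192-5p differed by 0.57 ± 0.13 in HIF1α-KO against control cells (SE, edgeR adjusted p = 0.0586), where DESeq2 called it. Between HIF1α/HIF2α-KO and HIF1α-KO cells miR-192-5p differed by -0.0054 ± 0.13. DESeq2 called 4 of the list in HIF1α/HIF2α-KO against control cells (10.7% of all) and limma 3 (6.76% of all), among them the 2 called by edgeR. The direction of the additional ones is not reported here. In each of the other comparisons both tools called 0 to 2 of the list. Of all miRNAs DESeq2 called 0% to 4.45% there and limma 0% to 2.85%. The 3 miRNAs of the miR-148 and miR-152 group, which share with miR-29 the DNA methyltransferases as known targets, summed to 2984 to 4182 CPM, and 0 passed in any comparison by edgeR, DESeq2 or limma, with 0 or 1 at an unadjusted p under 0.05.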

How the data were processed

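The miRNA-Seq libraries were grouped by the genotype, oxygen level and replicate number in their labels. For each library the authors deposited whole-number counts of reads on mature miRNAs, with no normalization applied. The submitters' processing notes name HISAT2, StringTie and DESeq2, but their roles, the genome build and the treatment of mismatched reads are not given in the sources used here. The analysis used R 4.3.3 and edgeR 4.0.16. Depths were scaled by TMM (factors 0.898 to 1.09), miRNAs were filtered with filterByExpr, and all 15 libraries were fitted with a mean for each group. Each contrast was tested by quasi-likelihood, and p-values were adjusted by Benjamini and Hochberg across the 562 miRNAs that passed, with 0.05 as the threshold. The filtered miRNAs held at least 99.988% of the counts of a library, and the common coefficient of variation between replicates was 0.292.

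Exact permutation tests of log2 ratios enumerated all divisions of the libraries and were two-sided in the sense that any difference among groups counts. Their p-values were adjusted with scipy 1.17.1. Before averaging, replicates were compared, and the smallest chi-square per degree of freedom between any 2 of a group was 49.3, so none was a copy of another. Alternatives were DESeq2 size factors, total counts, quantile normalization with limma 3.58.1, which the study names, applied to log2(CPM + 1), DESeq2 1.42.0, no filter, at least 10 counts in every library, only the libraries compared, the replicate number as a block, miR-21-5p left out, the miR-126 set as a covariate, and each replicate left out in turn.

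The genes named were the 5 members, the other arms of their hairpins, miR-210-3p, those of the lists that passed the test, and the 3 miRNAs most correlated with each guide strand. The members, lists and the split by miR-126 were chosen with earlier results of these data known. Mature and hairpin sequences are from RefSeq on GRCh38.p14 and gene positions from GENCODE v29 on GRCh38. The liver marker miR-122-5p was not analysed here.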

Additional observations from a re-analysis of the deposited data

How the results depend on the processing

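The 5p members rested on the fewest counts, at most 87 of miR-29a-5p and 125 of miR-29c-5p in a library. In HIF1α/HIF2α-KO against control cells the SE of miR-29c-5p was 0.27, as was that of miR-29b-3p. The number of members called in HIF1α/HIF2α-KO against control cells depended on the setting. It was 1 with DESeq2 size factors, with DESeq2, with limma, with no filter, with at least 10 counts and without miR-21-5p, and 2 with total counts and with the miR-126 set as a covariate, against 0 as reported. The miRNAs called of all those tested were 36, 60, 38, 44, 35 and 36 in the first 6 of these and 50 and 61 in the last 2, against 33 as reported. Fits with a replicate left out gave 0 to 1. In HIF1α/HIF2α-KO against HIF2α-KO cells it was 1 with no filter (21 of all miRNAs called, against 10), and for any difference among the 5 groups 1 with DESeq2 and with the covariate (81 and 43 of all called, against 35), 2 with no filter and with total counts (95 and 40 of all), and 0 to 1 with a replicate left out. The settings for the test of any difference were chosen after seeing the data. In the other 6 comparisons 0 members were called in every fit, while 0 to 26 of all miRNAs were. The cause was not tested.

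The log2 fold changes of miR-29a-3p, miR-29a-5p and miR-29b-3p in HIF1α/HIF2α-KO against control cells kept their sign in all 16 other fits, but others near 0 did not. Leaving out a replicate moved none of the 4 ratios' spreads of group means by as much as the SD within groups. With the miR-126 covariate the values were 0.0042 for miR-29a-3p, 0.023 for miR-29b-3p and 0.062 for miR-29c-3p in HIF2α-KO against HIF1α-KO cells, -0.072, -0.17 and -0.00089 for miR-29a-3p, miR-29b-3p and miR-29a-5p between oxygen levels, 0.11 for miR-29c-3p in HIF2α-KO and -0.0090 for miR-29c-5p in HIF1α-KO against control cells. Total counts gave 0.023 for the interaction of miR-29a-3p, at least 10 counts gave -0.010 for miR-29c-5p in HIF1α-KO against control cells, and limma gave -0.14 for miR-29c-5p between HIF1α/HIF2α-KO and HIF1α-KO cells. With a replicate left out, log2 fold changes between HIF1α/HIF2α-KO and HIF1α-KO cells ran from -0.0026 to 0.15 for miR-29a-3p, -0.12 to 0.37 for miR-29c-3p and -0.25 to 0.28 for miR-29c-5p. Against control cells, miR-29c-3p ran from -0.079 to 0.37 in HIF1α-KO and -0.27 to 0.073 in HIF2α-KO cells, and miR-29c-5p from -0.12 to 0.31 in HIF1α-KO and -0.21 to 0.40 in HIF1α/HIF2α-KO cells. Between oxygen levels the ranges were -0.028 to 0.076 for miR-29a-3p, -0.032 to 0.33 for miR-29b-3p and -0.35 to 0.13 for miR-29c-5p, and for the interaction -0.017 to 0.40 for miR-29b-3p.

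Over all miRNAs, total counts moved the median log2 fold change by 0.20 between HIF1α/HIF2α-KO and HIF2α-KO cells, by -0.18 in HIF2α-KO against HIF1α-KO and by -0.14 against control cells, and by 0.15 for the interaction, and gave 25 higher and 25 lower miRNAs in HIF1α/HIF2α-KO against control cells in place of 7 and 26, 11 and 5 in place of 3 and 7 against HIF2α-KO cells, and 2 and 10 in place of 5 and 1 in HIF2α-KO against HIF1α-KO cells. Over all settings the miRNAs called numbered 15 to 61 in HIF1α/HIF2α-KO, 0 to 12 in HIF1α-KO and 0 to 11 in HIF2α-KO against control cells, 0 to 26 and 2 to 21 in HIF1α/HIF2α-KO against HIF1α-KO and HIF2α-KO cells, 0 to 20 between these, 0 to 15 between oxygen levels, 0 to 5 for the interaction and 11 to 95 for any difference. Replicate numbers did not pair the libraries, as correlations of deviations between same-numbered libraries ran from -0.640 to 0.613. With the replicate number as a block, 0 members passed in any comparison. Of all miRNAs, 5.87% were then called in HIF1α/HIF2α-KO against control cells, 4.09% for any difference and 0% to 1.60% in the others. In that fit the log2 fold change of miR-29b-3p in HIF1α/HIF2α-KO against control cells was 0.95 (edgeR adjusted p = 0.0796).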
